A study of Homo sapiens with 3 samples.

Results

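Homeobox genes that mark the caudal end of the early embryo, namely CDX1, CDX2, CDX4, EVX1, NKX1-2 and GBX2, were followed in human pluripotent stem cells cultured on micropatterns. They are 6 of the 38606 genes listed in each count table, taken by symbol, and each symbol matched 1 gene. The cells were the HES3 MIXL1:GFP embryonic stem cell line, in which a GFP reporter sits at the MIXL1 locus. Cells of each library were seeded with the ROCK inhibitor Y-27632 at 10 µM, which helps single stem cells survive, and were left for 24 h before treatment. Each treatment was given for 48 h, and about 10 micropatterned colonies per treatment were pooled into 1 single-cell library, so a cell's place in its colony is not recorded. The BMP4 library came from colonies given BMP4 at 50 ng/mL. The CHIR+Activin library came from colonies given CHIR99021, an inhibitor of the kinase GSK3 that turns on WNT signalling, at 3 µM together with activin A, a NODAL-like ligand, at 100 ng/mL. The CHIR library came from colonies given CHIR99021 alone at 6 µM. The CHIR99021 dose therefore differed between the last 2 libraries, and an effect of activin A cannot be told apart from that of the lower dose. Each treatment had 1 library, so no difference between treatments has a replicate check and none was tested.

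Caudal-type (CDX) factors are the vertebrate relatives of Drosophila caudal. They are switched on in the posterior primitive streak and tailbud by WNT, FGF and BMP signalling, and they in turn activate HOX genes of the trunk. In the mouse, Cdx2 is also the factor that sets up trophectoderm. EVX1, the vertebrate relative of Drosophila even-skipped, is a marker of the posterior streak and lies beside the HOXA cluster. NKX1-2 (Sax1 in mouse and chick) marks the caudal lateral epiblast and preneural tube, and GBX2 is known for its part at the midbrain-hindbrain boundary and is also a WNT-responsive gene of the epiblast.

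The kept cells numbered 9401 in the BMP4 library, 6876 in the CHIR+Activin library and 7084 in the CHIR library. A kept cell had at least 2000 genes and at most 15% mitochondrial UMIs (unique molecular identifiers, each counting 1 captured RNA molecule), and in the BMP4 library, whose file held 1935344 barcodes, also at least 3739 UMIs. The median cell held 12623 UMIs in the BMP4 library, 17202 in the CHIR+Activin library and 22919.5 in the CHIR library. The libraries shared 8 to 12 cell barcodes per pair. A level below is the UMIs of a gene added up over all kept cells of its library and scaled to counts per 1000000 UMIs (CPM), with a 95% interval that covers counting error only. Shares of cells and cell-by-cell comparisons were taken after each cell was thinned to 10000 UMIs, which left 7041 BMP4, 6543 CHIR+Activin and 6892 CHIR cells. These are 3′ counts with no length scaling, so levels of different genes are compared by UMIs captured and not per length.

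Promoter sequence was available for 5 of the 6 genes. CDX2, CDX4 and EVX1 are printed here because these genes behaved differently between the libraries: CDX2 and EVX1 were many-fold higher under BMP4, and CDX4 was not. Each is the 250 bases before the start of the gene on the gene's own strand, from RefSeq on GRCh38.p14, for CDX2 at chr13:27969316-27969565 (minus strand), for CDX4 at chrX:73446803-73447052 (plus strand) and for EVX1 at chr7:27242552-27242801 (plus strand). Capitals mark matches on either strand to a TCF/LEF core (TCAAAG), a T-box core (GGTGTGA) or a caudal-type site (TTTATNG).
CDX2: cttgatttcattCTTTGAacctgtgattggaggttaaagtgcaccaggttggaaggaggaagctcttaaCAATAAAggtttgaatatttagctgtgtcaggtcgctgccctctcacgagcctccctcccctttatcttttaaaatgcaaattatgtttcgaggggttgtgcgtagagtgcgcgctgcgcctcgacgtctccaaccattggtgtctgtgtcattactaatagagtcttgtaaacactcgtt
CDX4: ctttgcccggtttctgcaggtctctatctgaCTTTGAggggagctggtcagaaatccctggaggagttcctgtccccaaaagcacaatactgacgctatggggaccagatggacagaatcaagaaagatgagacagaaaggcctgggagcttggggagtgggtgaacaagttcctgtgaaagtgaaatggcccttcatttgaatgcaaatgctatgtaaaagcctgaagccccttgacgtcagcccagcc
EVX1: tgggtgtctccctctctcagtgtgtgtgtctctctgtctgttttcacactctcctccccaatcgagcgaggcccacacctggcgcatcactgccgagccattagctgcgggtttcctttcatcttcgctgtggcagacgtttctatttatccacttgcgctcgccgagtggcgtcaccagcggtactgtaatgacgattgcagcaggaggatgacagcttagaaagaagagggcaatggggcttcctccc
In the CDX2 window the TCF/LEF core lay at -238 to -233 from the gene start and the caudal-type site at -181 to -175, both on the opposite strand. The CDX4 window held a TCF/LEF core at -219 to -214, and the EVX1, NKX1-2 and GBX2 windows held no match. Of 35116 promoter windows of this length, 11.2% held the TCF/LEF core, 2.76% the T-box core and 8.93% the caudal-type site. The motifs were chosen with the CDX2 sequence in view, and a match is only a description of the letters.

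CDX2 and EVX1 were the members that separated the treatments most, and both were higher under BMP4. CDX2 had 2089 UMIs in the BMP4 library, 72 in the CHIR+Activin library and 144 in the CHIR library. Its level was 15.2 CPM (14.6 to 15.9) under BMP4, 0.551 CPM (0.431 to 0.694) under CHIR+Activin and 0.778 CPM (0.656 to 0.915) under CHIR. The BMP4 level was 27.6-fold the CHIR+Activin level and 19.6-fold the CHIR level, log2 ratios of 4.79 (4.45 to 5.15) and 4.29 (4.05 to 4.55). CDX2 was low in both WNT-activated libraries but above the level of 3 counts there, since 3 counts correspond to 0.023 and 0.0162 CPM.

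EVX1, the posterior streak gene, was captured 3256 times in the BMP4 library, 344 times in the CHIR+Activin library and 358 times in the CHIR library. Its level was 23.7 CPM (22.9 to 24.6) under BMP4, 2.63 CPM (2.36 to 2.93) under CHIR+Activin and 1.93 CPM (1.74 to 2.14) under CHIR. The BMP4 level was 9.01-fold the CHIR+Activin level and 12.3-fold the CHIR level. Between the WNT-activated libraries EVX1 went the other way from CDX2, with log2 ratios of CHIR+Activin over CHIR of 0.45 (0.23 to 0.66) for EVX1 and -0.50 (-0.92 to -0.08) for CDX2. Both differences were under 2-fold. The gene on the opposite strand beside EVX1, EVX1-AS, had 385 UMIs in the BMP4 library, 23 in the CHIR+Activin library and 27 in the CHIR library. The strand setting of the counting is not stated in the labels or headers, so reads of EVX1 and EVX1-AS cannot be told apart with certainty.

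CDX1, the third of the genes that were higher under BMP4, also kept a clear level in the other libraries. It had 2452 UMIs in the BMP4 library, 775 in the CHIR+Activin library and 1339 in the CHIR library. Its level was 17.9 CPM (17.2 to 18.6) under BMP4, 5.93 CPM (5.52 to 6.37) under CHIR+Activin and 7.23 CPM (6.85 to 7.63) under CHIR. The log2 ratio was 1.59 (1.47 to 1.71) for BMP4 over CHIR+Activin and 1.31 (1.21 to 1.40) for BMP4 over CHIR.

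CDX4, the X-linked member, hardly differed between libraries. It had 536 UMIs and 3.91 CPM (3.58 to 4.25) under BMP4, 463 UMIs and 3.55 CPM (3.23 to 3.88) under CHIR+Activin, and 683 UMIs and 3.69 CPM (3.42 to 3.98) under CHIR. The 3 intervals overlapped, and the interval of the log2 ratio of BMP4 over CHIR ran from -0.08 to 0.25, so counting error alone allows a difference of that size.

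NKX1-2 and GBX2 were lower under BMP4, by very different amounts. NKX1-2 had 22.6 CPM (21.8 to 23.4) from 3103 UMIs under BMP4, 29.98 CPM (29.05 to 30.9) from 3915 UMIs under CHIR+Activin and 34.8 CPM (34.0 to 35.7) from 6452 UMIs under CHIR. The log2 ratio was -0.41 (-0.47 to -0.34) for BMP4 over CHIR+Activin and -0.62 (-0.69 to -0.56) for BMP4 over CHIR, both under 2-fold. GBX2 had 67 UMIs in the BMP4 library, 450 in the CHIR+Activin library and 919 in the CHIR library. Its level was 0.488 CPM (0.379 to 0.620) under BMP4, 3.45 CPM (3.14 to 3.78) under CHIR+Activin and 4.96 CPM (4.65 to 5.29) under CHIR. That placed the BMP4 level 7.06-fold under the CHIR+Activin level and 10.2-fold under the CHIR level, with log2 ratios of -2.82 (-3.21 to -2.45) and -3.35 (-3.73 to -2.99). GBX2-AS1, which is transcribed from the opposite strand, had the same order: 4.29 CPM under BMP4, 15 CPM under CHIR+Activin and 18.6 CPM under CHIR. The same limit on strand holds for this pair.

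**Figure D1:**
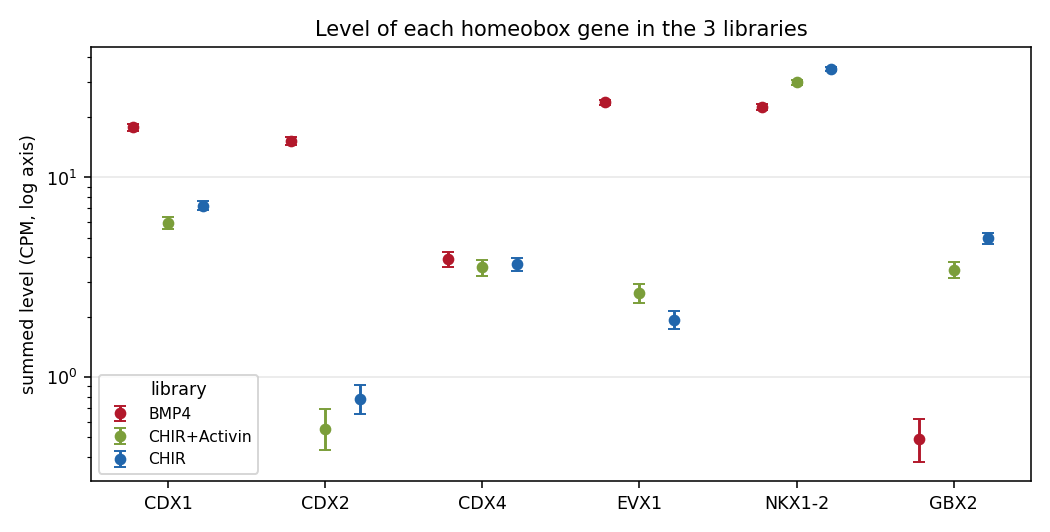
Summed level (CPM, log axis) of the 6 homeobox genes in the BMP4, CHIR+Activin and CHIR libraries; bars are 95% intervals for counting error. CDX2 and EVX1 lie far higher in the BMP4 library, GBX2 far lower, and CDX4 lies between 3.55 and 3.91 CPM in the 3 libraries.

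By a 2-fold threshold, 3 members (CDX1, CDX2, EVX1) were higher and 1 (GBX2) was lower in the BMP4 library than in the CHIR library, and the same 3 and 1 differed from the CHIR+Activin library. Among genes that reached 10 CPM in at least 1 library of a pair, 3.09% were at least 2-fold higher and 2.85% at least 2-fold lower in BMP4 than in CHIR, and 2.88% and 1.84% than in CHIR+Activin. GBX2 and CDX4 lay under that floor in all libraries. With the floor at 1 CPM the shares were 4.69% and 4.77% against CHIR, and 4.57% and 2.79% against CHIR+Activin. No member was 2-fold apart between CHIR+Activin and CHIR, where 0.183% of genes were higher and 0.0204% lower (0.467% and 0.0958% from 1 CPM). The BMP4 library enters both of the first comparisons, so they are not independent of each other.

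Within a library the members stood in different orders. Under BMP4 EVX1 and NKX1-2 led, with intervals that overlapped (22.9 to 24.6 and 21.8 to 23.4 CPM), followed by CDX1, CDX2, CDX4 and GBX2, each clear of the next. Under CHIR+Activin NKX1-2 was followed by CDX1, then by CDX4 and GBX2 with overlapping intervals (3.23 to 3.88 and 3.14 to 3.78 CPM), then by EVX1 and CDX2. Under CHIR the order was NKX1-2, CDX1, GBX2, CDX4, EVX1 and CDX2, each clear of the next.

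The BMP4 levels of CDX1, CDX2 and EVX1 came almost wholly from clusters made up of BMP4 cells. Cells of the 3 libraries were clustered together without integration, and with the 6 genes, EVX1-AS and GBX2-AS1 left out of the genes used. Of the 16 clusters, 5 were at least 95% BMP4 cells, and these held 7913 of the 9401 BMP4 cells. They carried 97.2% of the BMP4 library's CDX1 UMIs, 98.95% of its CDX2 UMIs, 97.2% of its EVX1 UMIs, 91.98% of its NKX1-2 UMIs, 87.1% of its CDX4 UMIs and 67.2% of its GBX2 UMIs. Since these clusters held most of the cells, a high share alone does not show concentration. CDX4 was at 3.99 CPM inside them and 3.43 CPM outside, NKX1-2 at 24.4 and 12.4 CPM, and GBX2 at 0.385 and 1.09 CPM. For CDX2 the levels were 17.7 and 1.09 CPM. A cluster made up almost wholly of 1 library can reflect that library and not a cell type.

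In the 1488 BMP4 cells outside those clusters, CDX2 had 1.09 CPM (0.685 to 1.65), CDX1 3.43 CPM (2.67 to 4.34), EVX1 4.47 CPM (3.59 to 5.49), CDX4 3.43 CPM (2.67 to 4.34), NKX1-2 12.4 CPM (10.9 to 14.0) and GBX2 1.09 CPM (0.685 to 1.65). Among cells outside those clusters, an alternative added after the clusters were seen, the direction of CDX1 was reversed: its log2 ratio was -0.74 (-1.12 to -0.38) for BMP4 over CHIR+Activin and -1.08 (-1.45 to -0.73) for BMP4 over CHIR. CDX2 was at a log2 ratio of 0.49 (-0.23 to 1.14) against CHIR, whose interval spans 0, and at 1.03 (0.27 to 1.74) against CHIR+Activin. EVX1 kept its direction, at 0.83 against CHIR+Activin and 1.21 (0.86 to 1.55) against CHIR. NKX1-2 was then over 2-fold lower in both, at -1.29 and -1.50, and GBX2 stayed lower, at -1.67 and -2.18. The mix of clusters also differed: 451 of these 1488 BMP4 cells lay in the epiblast-like cluster 8, which held 5.83% of CHIR cells. In cluster 8 the CDX1 log2 ratio of BMP4 over CHIR was -1.67 (-2.82 to -0.65). In clusters 6 and 9 it was -0.04 (-0.79 to 0.62) and -0.12 (-1.45 to 0.95). Against CHIR+Activin it was 1.12 (0.33 to 1.83) in cluster 6 and -1.66 (-2.89 to -0.65) in cluster 11. The part of the mix in the reversal was not tested.

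**Figure D2:**
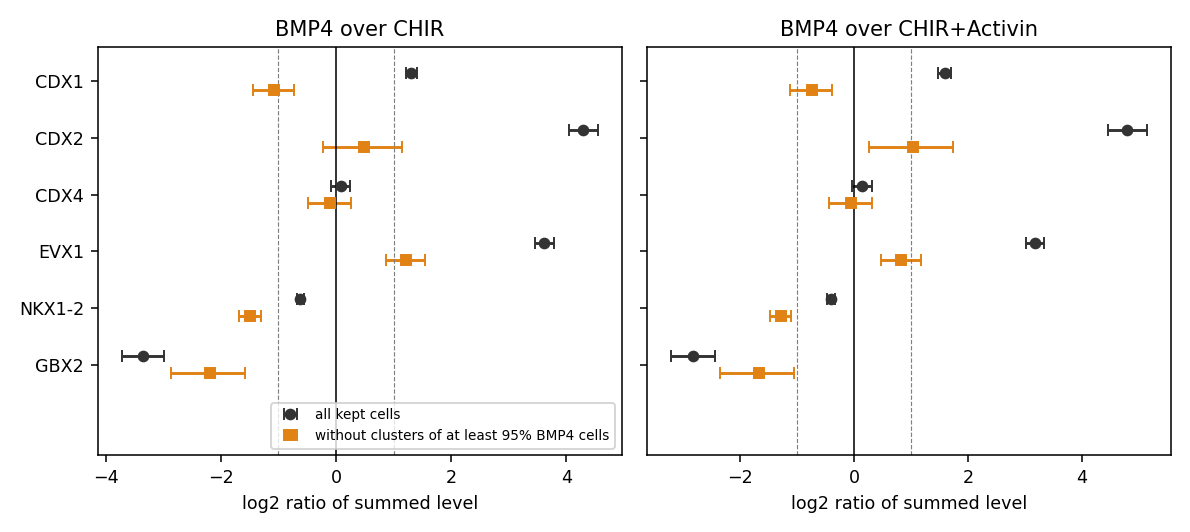
Log2 ratio of the summed level of each homeobox gene for BMP4 over CHIR (left) and BMP4 over CHIR+Activin (right), in all kept cells (circles) and without the clusters of at least 95% BMP4 cells (squares), with 95% intervals for counting error; dashed lines mark 2-fold. CDX1 lies at 1.31 and 1.59 in all kept cells and at -1.08 and -0.74 without those clusters.

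At equal depth, EVX1 was the member found in most BMP4 cells and NKX1-2 in most cells of the other libraries. An EVX1 UMI was present in 21.3% (20.4 to 22.3) of BMP4 cells, 2.55% of CHIR+Activin cells and 1.63% of CHIR cells. For CDX2 the shares were 11.5% (10.7 to 12.2), 0.459% and 0.667%, and for CDX1 15.01% (14.2 to 15.9), 5.43% and 5.99%, in the order BMP4, CHIR+Activin, CHIR. Before thinning, the CDX2 shares were 15.3% of BMP4 cells, 1.003% of CHIR+Activin cells and 1.96% of CHIR cells.

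NKX1-2 was found in 17.5% (16.7 to 18.5) of BMP4 cells, 23.4% (22.4 to 24.4) of CHIR+Activin cells and 26.4% (25.4 to 27.5) of CHIR cells. CDX4 was found in 3.52% of BMP4 cells, 3.59% of CHIR+Activin cells and 3.58% of CHIR cells. GBX2 was found in 0.426% of BMP4 cells, 3.21% of CHIR+Activin cells and 4.63% of CHIR cells. These are low-count genes: a BMP4 cell with a CDX2 UMI held 1.31 of them on average, and 1 with an EVX1 UMI held 1.17.

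Free RNA in the BMP4 droplets carried the same genes. Barcodes of the BMP4 file with under 100 UMIs had 12.2 CPM of CDX2, 29.4 CPM of EVX1, 12.5 CPM of CDX1 and 22.4 CPM of NKX1-2, close to the cells' own levels. In the epiblast-like cluster (cluster 8, marked by SOX2, USP44, TERF1 and DPPA4), 0.887% of its 451 BMP4 cells held a CDX2 UMI before thinning, 1.77% an EVX1 UMI and 1.996% a CDX1 UMI, at a median of 15170 UMIs. Across the clusters outside the 5 BMP4-specific ones, CDX2 shares ran from 0% (cluster 4 among others) to 4.85% (cluster 13). EVX1 shares there ran from 0.885% (cluster 16) to 17.3% (cluster 11). Whether such UMIs came from free RNA or from the cells was not tested. In the 5 BMP4-specific clusters the CDX2 share ran from 8.46% to 34.9% at medians of 11230 to 16140 UMIs. Free-RNA profiles of the CHIR+Activin and CHIR libraries were not analysed here.

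In the main clustering of the BMP4 library the CDX genes and EVX1 had their highest levels in cluster 15 and NKX1-2 in cluster 10, though CDX2 was high in both. Cluster 15 (622 cells, mesoderm-like; with MSGN1 among its leading genes) had the highest CDX1, CDX2, CDX4 and EVX1 levels, at 36.5, 43.9, 7.12 and 41.5 CPM, with 17.7 CPM of NKX1-2. Cluster 10 (1214 cells) had the highest NKX1-2 level, 51.7 CPM (48.8 to 54.8), and held 37.8% of the library's NKX1-2 UMIs in 12.9% of its cells. NANOS3, PRDM1 and SOX17, which act in primordial germ cells, were among its leading genes, though PRDM1 and SOX17 with CXCR4 also count as endoderm markers and the marker lists tied there. CDX2 was at 26.8 CPM and EVX1 at 26.3 CPM in that cluster, which held 29.1% of the library's CDX2 UMIs, against 16.5% in cluster 15. Of its cells, 18.1% were among the 6% of the library with the highest doublet scores, and the part of doublets in these levels was not tested cluster by cluster.

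Cluster 14 (813 cells, amnion-like, marked by TFAP2A, GATA3, ISL1 and GABRP) combined high CDX2, 28.4 CPM, and NKX1-2, 39.2 CPM (35.95 to 42.6), with low CDX1, 5.91 CPM. Cluster 1 (2744 cells, mesoderm-like, marked by MESP1, TBX6 and APLNR) had the reverse for NKX1-2, 5.23 CPM, with 28.1 CPM of EVX1, 18.5 CPM of CDX1 and 7.82 CPM of CDX2. Cluster 2 (2520 cells, unnamed, with TBXT, MIXL1 and WNT8A) had 25.5 CPM of CDX1, 26.7 CPM of EVX1, 22.1 CPM of NKX1-2 and 11.9 CPM of CDX2. In the epiblast-like cluster 8, CDX4 was at 3.73 CPM, near its library level, while CDX1 was at 1.29 CPM, EVX1 at 1.16 CPM and CDX2 at 0.515 CPM. Which cluster led depended on the grain of the clustering. At a finer resolution CDX1, CDX4 and EVX1 led in a cluster that drew 71.5% of its cells from cluster 1. There CDX2, at 35.9 CPM, led with NKX1-2 in a cluster that drew 98.5% from cluster 10. At a coarser resolution CDX2 and CDX4 led with NKX1-2 in a cluster that drew 50.3% of its cells from cluster 14. CDX1 then led in a cluster with 77.8% from cluster 2, and EVX1 in a cluster with 82.2% from cluster 1.

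**Figure D3:**
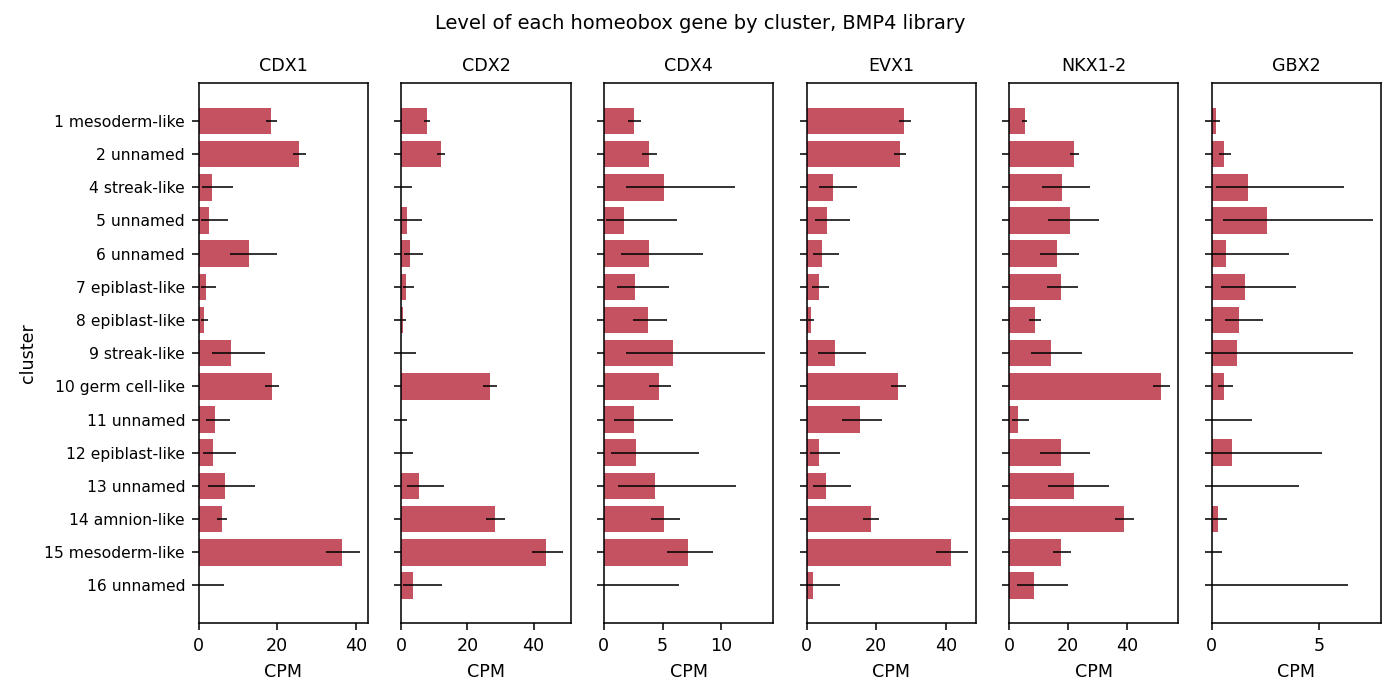
Level (CPM) of each homeobox gene in the clusters with at least 50 BMP4 cells, BMP4 library; bars are levels and lines 95% intervals for counting error. CDX1, CDX2, CDX4 and EVX1 are highest in cluster 15 and NKX1-2 in cluster 10, while cluster 8 has 0.515 CPM of CDX2.

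In the other libraries EVX1 was high in cluster 11, where NKX1-2 lay under its library level. Under CHIR this was the highest EVX1 level of any cluster with at least 50 cells. Under CHIR+Activin the 55 cells of mesoderm-like cluster 1 had more EVX1, 17.1 CPM (9.79 to 27.8) from 16 UMIs. They had 20.3 CPM of CDX1 and 4.28 CPM of NKX1-2. Cluster 11, with the anterior streak and endoderm genes CER1, GSC, LHX1 and OTX2 and with MIXL1 and EOMES, held 805 CHIR+Activin cells and 209 CHIR cells. In the CHIR+Activin library it carried 48.3% of the EVX1 UMIs, at 10.9 CPM (9.29 to 12.7), with 12.8 CPM of CDX1, 9.84 CPM of NKX1-2 and 0.590 CPM of GBX2. In the CHIR library it had 12.5 CPM of EVX1, 11.9 CPM of CDX1, 15.8 CPM of NKX1-2 and 1.43 CPM of GBX2. The SOX2-rich cluster 5 was its counterpart for the other genes: NKX1-2 was at 43.8 CPM and GBX2 at 6.13 CPM there in the CHIR+Activin library, and NKX1-2 at 50.9 CPM and GBX2 at 10.0 CPM in the CHIR library. EVX1 was at 0.178 CPM in cluster 5 under CHIR+Activin and 0.544 CPM under CHIR. The streak-like cluster 4 held both genes. It carried the largest share of the CHIR library's EVX1 UMIs, 34.1% against 17.0% in cluster 11, at 4.88 CPM of EVX1 and 37.3 CPM of NKX1-2. Under CHIR+Activin it had 3.26 CPM of EVX1 and 27.7 CPM of NKX1-2. The 162 BMP4 cells in cluster 11 had EVX1 at 15.2 CPM (10.3 to 21.7) and no CDX2 UMI, which allows CDX2 up to 1.87 CPM.

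The level of CDX1 was higher in cells with more TBXT, the T-box factor that defines the streak. In BMP4 cells with 0, 1, 2, 3 to 4 and 5 or more TBXT UMIs, CDX1 was at 7.43, 15.02, 19.3, 27.97 and 31.3 CPM. EVX1 was at 28.7 CPM in TBXT-positive and 14.96 CPM in TBXT-negative BMP4 cells, a log2 ratio of 0.94 (0.76 to 1.12). NKX1-2 ran the other way, at 27.4, 27.3, 21.7, 17.7 and 12.9 CPM over the same 5 bins. CDX2 differed little with TBXT, at 16.1 CPM in positive and 12.5 CPM in negative cells (log2 0.37, 0.16 to 0.58).

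The difference of CDX2 between libraries was also large on each side of a split by any TBXT UMI. That split does not match TBXT level: over all kept cells TBXT was at 202.1 CPM under BMP4 and 47.3 CPM under CHIR. Among TBXT-positive cells CDX2 had 16.1 CPM under BMP4 and 0.752 CPM under CHIR, 21.4-fold apart, and among TBXT-negative cells 12.5 CPM under BMP4 and 0.648 CPM under CHIR, 19.3-fold apart. EVX1 was 9.67-fold higher under BMP4 than under CHIR among TBXT-positive cells, at 28.7 and 2.97 CPM, and 14.8-fold higher among TBXT-negative cells. For CDX1 the fold was 2.39 among TBXT-positive cells and 1.39 among TBXT-negative cells. Split by SOX2 instead, CDX2 was 6.97-fold higher under BMP4 than under CHIR among SOX2-positive cells and 27.2-fold among SOX2-negative cells.

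SOX2, the epiblast and neural factor, marked cells with less of each CDX gene and EVX1 in the BMP4 library. CDX2 was at 16.7, 7.02, 3.81 and 1.54 CPM in BMP4 cells with 0, 1, 2 and 3 to 4 SOX2 UMIs. In SOX2-positive against SOX2-negative BMP4 cells the log2 ratio was -1.63 (-2.05 to -1.23) for CDX2, -1.40 (-1.71 to -1.11) for EVX1, -1.18 (-1.51 to -0.87) for CDX1 and -0.42 (-0.66 to -0.19) for NKX1-2. NKX1-2 was higher in SOX2-positive cells of the other libraries, at 34.5 against 24.1 CPM under CHIR+Activin and 38.9 against 28.2 CPM under CHIR. GBX2 was also higher there: 4.22 CPM in SOX2-positive and 2.63 CPM in SOX2-negative CHIR+Activin cells, and 6.73 and 3.72 CPM in CHIR cells.

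**Figure D4:**
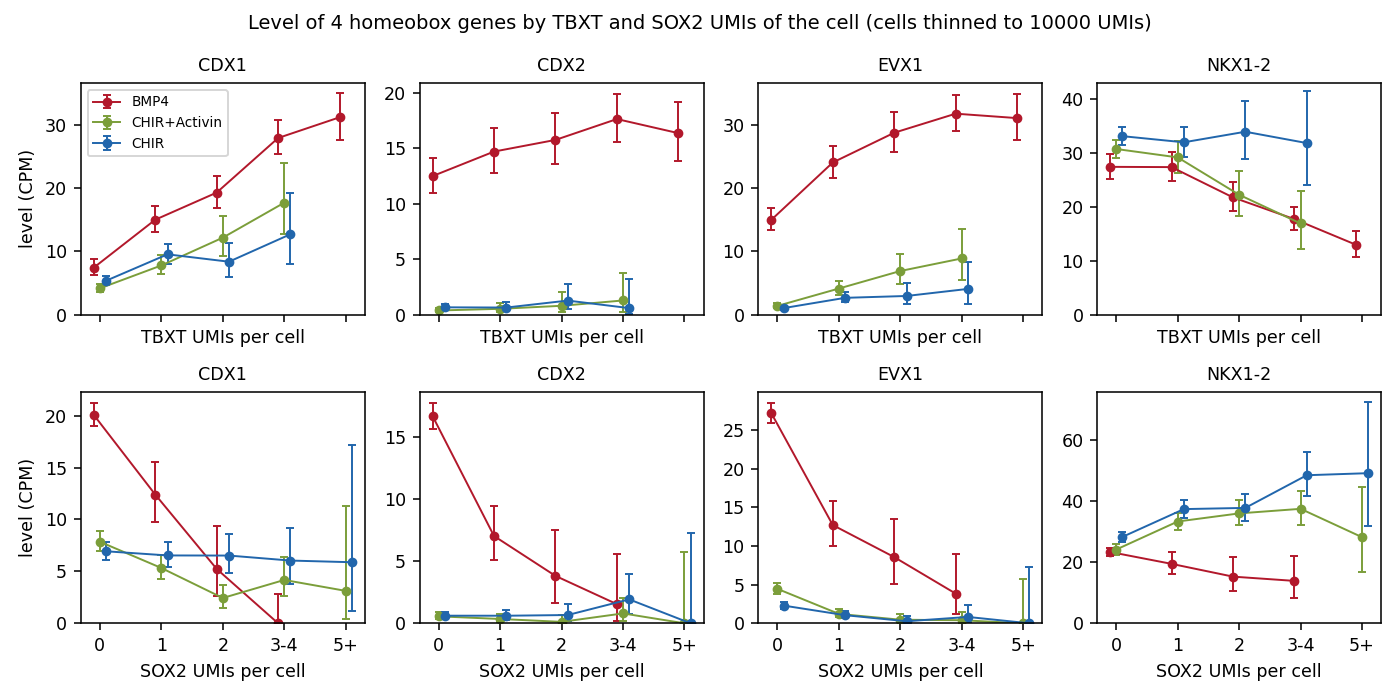
Level (CPM) of CDX1, CDX2, EVX1 and NKX1-2 by the number of TBXT UMIs (top) and SOX2 UMIs (bottom) in the cell, for the BMP4, CHIR+Activin and CHIR libraries after thinning to 10000 UMIs; bins of under 50 cells are left out and bars are 95% intervals for counting error. In the BMP4 library CDX1 goes up and NKX1-2 down with TBXT, and CDX2 goes down with SOX2.

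Other landmark genes placed the members in different cells of the BMP4 library. The 16 landmarks were genes of streak, mesoderm, amnion, endoderm and epiblast, and a ratio was given where at least 50 cells held the landmark and the smaller group was expected to hold at least 5 UMIs, limits set after the data were seen. CDX2 was at 34.2 CPM in SOX17-positive and 11.7 CPM in SOX17-negative cells, a log2 ratio of 1.54 (1.36 to 1.73). It was likewise higher with the amnion genes GATA3, at 31.3 against 11.7 CPM, and TFAP2A, at 27.2 against 12.6 CPM, and with the streak ligand gene WNT3A, at 29.9 against 14.6 CPM. With the T-box gene EOMES it was lower, at 10.0 against 23.1 CPM, and with OTX2, a gene of the anterior epiblast, at 7.55 against 16.5 CPM.

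NKX1-2 shared part of that pattern. It was at 53.5 CPM in SOX17-positive and 17.0 CPM in SOX17-negative BMP4 cells (log2 1.65, 1.502 to 1.80), and at 44.4 against 17.9 CPM with TFAP2A. It was lower with the mesoderm gene MESP1, at 15.1 against 32.1 CPM, with EOMES, at 15.5 against 33.5 CPM, with OTX2, at 9.58 against 24.8 CPM, and with CYP26A1, which breaks down retinoic acid, at 12.4 against 29.1 CPM. Without the 6% of cells of highest doublet score the SOX17 log2 ratios were 1.64 for CDX2 and 1.69 for NKX1-2.

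CDX1 and EVX1 were instead higher with some streak and mesoderm genes. CDX1 was at 21.6 CPM in MIXL1-positive and 9.54 CPM in MIXL1-negative BMP4 cells, and EVX1 at 31.1 CPM in MESP1-positive and 16.7 CPM in MESP1-negative cells. With EOMES the differences were smaller, at 20.4 against 15.5 CPM for CDX1 and 26.9 against 21.5 CPM for EVX1. CDX1 was at least 2-fold higher with 2 of the 16 landmarks and EVX1 with 0. With SOX17, CDX1 was at 15.6 against 19.0 CPM and EVX1 at 26.5 against 24.6 CPM. CDX4 was not 2-fold apart for any of the 16 landmarks in the BMP4 library, and its largest log2 ratio, with SOX2, was -0.72 (-1.40 to -0.09).

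In the WNT-activated libraries EVX1 was concentrated in MIXL1-positive and EOMES-positive cells. Under CHIR+Activin it was at 4.21 CPM in MIXL1-positive and 0.717 CPM in MIXL1-negative cells (log2 2.55, 1.88 to 3.30), and at 5.20 against 0.812 CPM with EOMES (2.68, 2.10 to 3.30). Under CHIR the values were 2.41 against 0.389 CPM with MIXL1 (2.63, 1.69 to 3.73) and 2.70 against 0.847 CPM with EOMES (1.67, 1.07 to 2.30). NKX1-2 was at 6.62 CPM in the 136 SOX17-positive CHIR+Activin cells and 29.6 CPM in the SOX17-negative ones, the opposite of its pattern under BMP4. GBX2 was lower in FOXA2-positive cells of the CHIR library, at 2.11 against 6.41 CPM, and in CYP26A1-positive cells, at 1.69 against 5.40 CPM. FOXA2 is a gene of the anterior streak and endoderm.

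**Figure D5:**
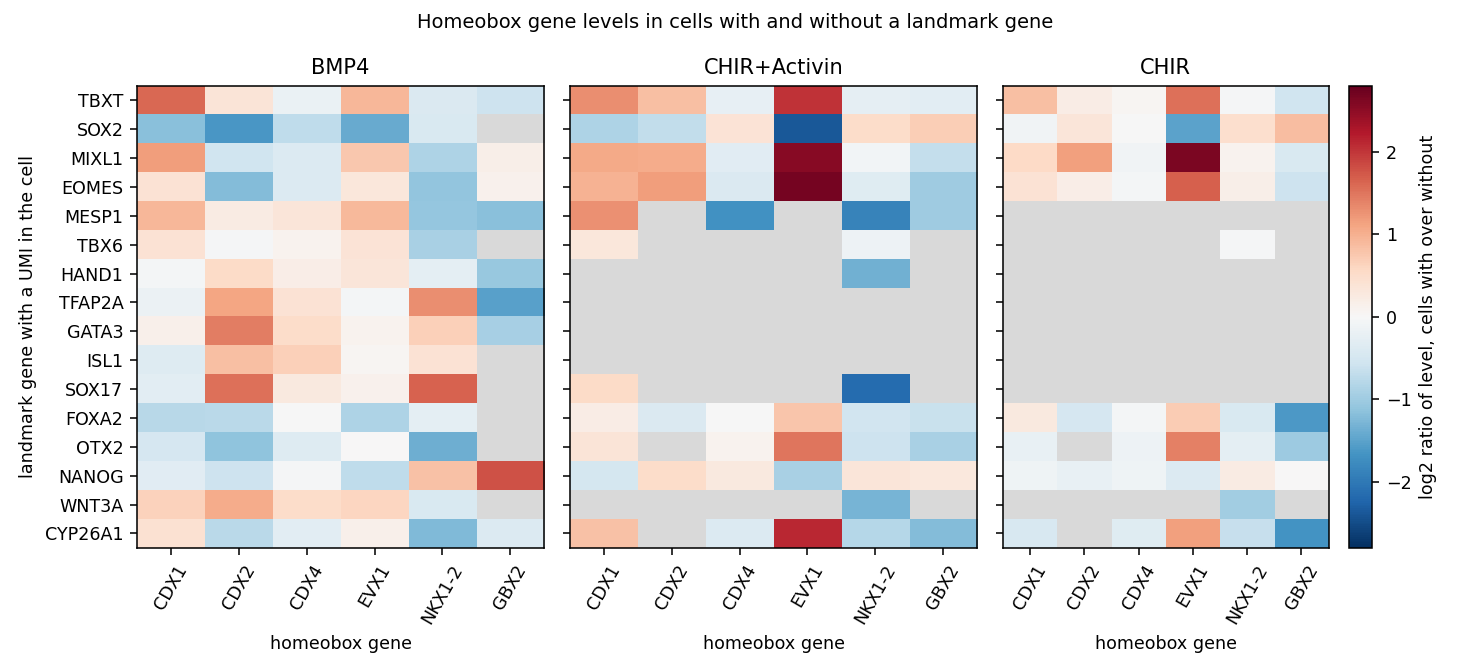
Log2 ratio of the level of each homeobox gene in cells with over cells without a UMI of 16 landmark genes, for the BMP4, CHIR+Activin and CHIR libraries at 10000 UMIs per cell; red is higher with the landmark, blue lower, and grey marks pairs with too few cells or UMIs. NKX1-2 is at 1.65 for SOX17 under BMP4 and at -2.16 under CHIR+Activin.

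Cells rarely held UMIs of several members at once. None of the 6 genes was found in 50.1% of BMP4 cells, 65.96% of CHIR+Activin cells and 62.7% of CHIR cells at 10000 UMIs, and 2 members were found in 12.7%, 3.97% and 4.90% of them. In the BMP4 library EVX1 alone was found in 11.6% of cells, NKX1-2 alone in 9.25%, CDX1 alone in 7.10% and CDX2 alone in 4.35%. The most common pair was CDX1 with EVX1, in 2.54%. At 1 to 2 UMIs per positive cell, absence of a UMI does not show absence of the RNA.

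CDX2-positive BMP4 cells held each of the other common members more often than CDX2-negative ones. CDX1 was found in 22.8% of CDX2-positive and 14.0% of CDX2-negative cells, EVX1 in 30.9% and 20.1%, NKX1-2 in 26.9% and 16.3%, and CDX4 in 5.82% and 3.23%. NKX1-2 and EVX1 were found together nearly as often in either kind of BMP4 cell: EVX1 was in 23.1% of NKX1-2-positive and 20.9% of NKX1-2-negative cells. Under CHIR+Activin EVX1 was in 1.24% of NKX1-2-positive cells, 19 of 1530, and 2.95% of NKX1-2-negative cells. The CHIR values for the same pair were 1.43% and 1.70%.

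The genes whose counts ran most closely with a member differed from member to member. Correlations are Pearson's r of log thinned counts across the cells of 1 library, which share that library and its free RNA, and are given as descriptions. In 7041 BMP4 cells CDX1 ran with TBXT (r = 0.186), the neuropeptide gene GAL (0.164) and NKAIN2 (0.15), and against TCF7L1 (-0.133), a repressor of WNT target genes. CDX2 ran with PCAT14 (0.273), the WNT ligand gene WNT5B (0.211), HAPLN1 (0.207), the BMP target ID1 (0.200) and HPGD (0.196), and against the DNA methyltransferase gene DNMT3B (-0.162). NKX1-2 ran with ENSG00000284294 (0.338), PCAT14 (0.314), PLPP1 (0.307) and the germ cell factors TFAP2C (0.294) and PRDM1 (0.273), and against GATA6 (-0.212) and FGF17 (-0.202). EVX1 ran with LINC00467 (0.144), MESP1 (0.140) and NTS (0.138). CDX4 had no correlation above 0.0626.

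In the other libraries the correlations were weaker. Under CHIR+Activin CDX1 again ran with TBXT (0.126), and NKX1-2 ran with SEMA6A (0.132) and against FGF17 (-0.172), GATA6 (-0.152) and CER1 (-0.140). Under CHIR the NKX1-2 list was led by the mitochondrial transcripts MT-CO2 (0.160) and MT-CO3 (0.141), and the lowest was the stress gene DDIT4 (-0.158). When cells were thinned to 5000 UMIs, 4 of the 5 highest companions were shared for CDX1, CDX2 and NKX1-2 in the BMP4 library, 2 for EVX1 and 0 for CDX4. When genes were ranked by their CPM ratio between cells with and without the member instead, 4 of the 5 were shared for NKX1-2 and 1 each for CDX1, CDX2 and CDX4, and none for EVX1.

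HOX genes, which CDX factors are known to activate, were low in each library and highest under BMP4. The 27 HOX genes of paralog groups 1 to 9 summed to 1625 UMIs and 11.9 CPM under BMP4, 97 UMIs and 0.743 CPM under CHIR+Activin, and 160 UMIs and 0.864 CPM under CHIR. HOXB2 at 3.17 CPM, HOXB6 at 2.68 CPM and HOXB9 at 1.39 CPM together made up most of the BMP4 sum, and HOXB6 had 0 UMIs in both of the other libraries, where 3 counts correspond to 0.023 and 0.0162 CPM.

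HOX UMIs went with CDX2 and CDX4 more than with the other members. In the BMP4 library the HOX sum was 25.4 CPM in CDX2-positive and 9.29 CPM in CDX2-negative cells (log2 1.45, 1.21 to 1.68). It was 20.97 CPM in CDX4-positive and 10.8 CPM in CDX4-negative cells (0.96, 0.53 to 1.37). For CDX1 the values were 12.9 and 10.8 CPM (0.25, -0.03 to 0.52), for EVX1 13.0 and 10.6 CPM and for NKX1-2 10.0 and 11.4 CPM. By cluster the HOX sum was 34.7 CPM in the amnion-like cluster 14, 19.5 CPM in cluster 15 and 18.1 CPM in cluster 1. Cluster 10 had 9.39 CPM, under the 11.9 CPM of the whole library. Yet CDX2 was at 26.8 CPM in cluster 10, which held 29.1% of the library's CDX2 UMIs. Cluster 2, which had the second-highest CDX1 level, had a HOX sum of 2.76 CPM.

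Of 28 other genes of the caudal epiblast and neuromesodermal state, 19 had at least 10 CPM in BMP4 or CHIR, and 9 of these were at least 2-fold higher and 4 lower under BMP4, where 3.09% of all such genes were higher and 2.85% lower. The median log2 ratio was 0.72, where that of all such genes was -0.03. WNT5A was at 77.3 CPM under BMP4 and 1.45 CPM under CHIR, IRX3 at 12.5 and 0.383 CPM, and the T-box gene TBX6 at 13.3 and 0.966 CPM. TBXT was at 202.1 CPM under BMP4 and 47.3 CPM under CHIR and CYP26A1 at 109.7 and 13.4 CPM. The list was not uniform: SOX2 was at 23.9 CPM under BMP4 and 71.2 CPM under CHIR, FGF8 at 10.1 and 72.3 CPM, and the WNT target SP5 at 67.3 and 138.2 CPM. Against CHIR+Activin 9 of 19 were higher and 3 lower, where 2.88% of all such genes were higher and 1.84% lower.

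Lists of amnion, intestinal, BMP and WNT genes were also counted, beside the same 3.09% of all genes higher and 2.85% lower. Of 14 amnion and trophoblast genes shared with CDX2, 7 were measured and 6 were at least 2-fold higher under BMP4 than under CHIR, and the median of the 7 log2 ratios was 6.76. Of 10 intestinal genes known to depend on CDX2, only GUCY2C was measured, at 13.1 CPM under BMP4 and 14.7 CPM under CHIR, so the list gives no count. Of 12 BMP target genes 9 were measured and 8 were higher, among them TBX3 at 75.4 CPM under BMP4 and 0.659 CPM under CHIR, and MSX2 at 50.5 and 0.702 CPM. Of 14 WNT feedback genes 13 were measured, 5 higher and 1 lower, with a median of 0.83.

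Among 12 nascent and paraxial mesoderm genes all 8 measured were higher under BMP4 than under CHIR, with a median of 5.57, where 3.09% of all genes were higher and 2.85% lower. Among 9 germ cell genes 3 of 5 measured were higher, among 14 retinoic acid genes 2 of 5, among 15 anterior genes 3 of 10 with 4 lower, and among 10 neural genes only IRX3 was measured. Some genes stand on more than 1 of these lists.

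Within the BMP4 library, genes of several lists were 2-fold apart in CDX2-positive or NKX1-2-positive cells. In CDX2-positive against CDX2-negative cells, 6 of 9 measured anterior genes were at least 2-fold lower (median log2 -1.09) and 3 of 7 amnion genes at least 2-fold higher (0.97), where 0.509% of all genes were lower and 0.26% higher. In NKX1-2-positive against NKX1-2-negative cells, 4 of 5 germ cell genes were higher (1.42) and all 8 measured mesoderm genes lower (-1.17), 5 of 9 anterior genes were lower and 1 higher (-1.0), and 2 of 7 amnion genes were higher (0.33), where 0.509% of all genes were higher and 0.645% lower. The caudal epiblast and neuromesodermal list had 18 measured genes. In CDX2-positive cells 1 of them was higher and 3 lower (-0.14), and in NKX1-2-positive cells 0 were higher and 5 lower (-0.36). In CDX1-positive, EVX1-positive and CDX4-positive cells 0 of the 18 were higher and 1 lower. The shares of all genes for each member are those given in this paragraph. In CDX1-positive cells 1 anterior gene of 9 was lower and no mesoderm, amnion or germ cell gene was 2-fold apart, where 0.0% of all genes were higher and 0.218% lower. EVX1-positive and CDX4-positive cells likewise had few genes set apart: 0.0% of all genes were 2-fold higher and 0.156% lower with EVX1, and 0.0208% higher and 0.0416% lower with CDX4.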

How the data were processed

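Gene counts were deposited as 3 matrices of UMI counts, 1 per treatment, made by the authors with Cell Ranger (version 8.0.1 per the file headers); Seurat is named without a version in the submitters' processing notes, and genome build and strand setting are not stated. The BMP4 matrix was unfiltered, so a UMI minimum of 3739 (10% of the UMI count at percentile 99 among the 10000 largest barcodes) was applied, and 9401 BMP4, 6876 CHIR+Activin and 7084 CHIR cells were kept. Counts were summed per library and scaled to counts per 1000000 (CPM). Ratios have exact conditional binomial intervals, levels exact Poisson and shares exact binomial ones (95%, counting error only). In a ratio with an interval a total of 0 was set at 3 counts. For the numbers of genes 2-fold apart, over all genes and in lists, any total under 3 counts was set at 3. The code for calls and intervals was run on simulated Poisson counts, the model the intervals assume, for genes averaging at least 10 CPM over a pair. All 4-fold and 3-fold genes were found and intervals held the true ratio for 95.5% of 9743 genes (BMP4 over CHIR). The simulated counts had no variation between cells, colonies or libraries. They therefore check the code and not the calls made here, and they leave out levels as low as those of CDX4 and GBX2. Scrublet's automatic threshold marked 0 cells, so doublets were kept, with an alternative that left out the top 6%. Clusters (scanpy 1.11.5; Leiden, resolution 1, 30 components, 20 neighbours, 2000 variable genes) were named from at least 3 markers 1.5-fold up; ties were settled after seeing them. The named genes were the 6 members, the landmarks, the 5 highest and 3 lowest companions and the 3 largest ratios per list. Members and lists were chosen with earlier results of these data known; TBXT, CYP26A1, SOX2, FGF8, SP5 and the cluster markers were named after their values were seen. Alternatives covered scaling, cell filters, depth, doublets and resolution.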

Additional observations from a re-analysis of the deposited data

Results flagged for a closer look

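In 10 comparisons the intervals of a pair of libraries lay on opposite sides of 0. None of these differences between libraries was tested. The log2 ratio of NKX1-2 in cells with over cells without SOX17 was 1.65 under BMP4 and -2.16 under CHIR+Activin. With SOX2 it was -0.42 under BMP4, 0.52 under CHIR+Activin and 0.47 under CHIR, and with EOMES it was -1.11 under BMP4, -0.34 under CHIR+Activin and 0.17 under CHIR. CDX2 was at -0.56 with MIXL1 under BMP4 and at 1.14 under CHIR, and at -1.21 with EOMES under BMP4 and 1.16 under CHIR+Activin; the WNT-activated values rest on 46 CDX2-positive CHIR cells and 30 CDX2-positive CHIR+Activin cells. With cells thinned to 5000 UMIs the CDX2 value with MIXL1 under CHIR was -0.62, of the same sign as under BMP4, and the log2 ratio of NKX1-2 in EOMES-positive over -negative cells, CHIR library, was 0.0055. EVX1 with FOXA2 was at -0.86 under BMP4, 0.77 under CHIR+Activin and 0.71 under CHIR. CDX4 with SOX2 was at -0.72 under BMP4 and 0.38 (0.00 to 0.76) under CHIR+Activin.

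Barcodes of the BMP4 file that lay under the UMI minimum, which the comparisons do not use, also held the members. Their levels were 11.5 CPM for CDX1, 10.6 CPM for CDX2, 2.37 CPM for CDX4, 25.7 CPM for EVX1, 18.4 CPM for NKX1-2 and 0.822 CPM for GBX2, where 3 counts correspond to 0.274 CPM. The kept BMP4 cells had 17.9, 15.2, 3.91, 23.7, 22.6 and 0.488 CPM of the same genes in that order.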

How the results depend on the processing

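The 3 higher and 1 lower members under BMP4 were the same counts under each scaling, cell filter, doublet and thinning alternative. Without the clusters of at least 95% BMP4 cells, an alternative chosen after seeing the data, 1 member was higher and 3 lower against CHIR, 1 higher and 2 lower against CHIR+Activin, and CDX1 reversed to log2 ratios of -1.08 and -0.74. With genes of at least 1 CPM, 804 genes were higher and 817 lower in BMP4 than in CHIR, 773 and 472 than in CHIR+Activin, and 78 and 16 in CHIR+Activin than in CHIR; with all genes the counts were 2401 and 2146, 2221 and 1527, and 687 and 705. Mean-over-cells scaling and thinning each gave 4 lower genes for the last pair, where 2 were lower in the main count. Genes of the lists numbered, in the same order of pairs, 67 higher and 13 lower, 63 and 11, and 19 and 1 with all genes, and 14 higher for CHIR+Activin over CHIR from 1 CPM. Members found in at least 5% of cells numbered 1 at 5000 UMIs and 4 without thinning, in both the CHIR+Activin and the CHIR library. At 5000 UMIs, 0 co-detected pairs were 2-fold lower in BMP4 and in CHIR, and 0 were higher and 1 lower in CHIR+Activin, and CDX2 with MIXL1 reversed to -0.44 under CHIR+Activin and -0.62 under CHIR. Members 2-fold above their library in a cluster numbered 4 at resolution 2 in CHIR+Activin and 1 at resolution 0.5 in CHIR. The cause of these shifts was not tested. Median-of-ratios scaling shifted all ratios of a pair by at most 0.04 log2; mean-over-cells scaling also moved NKX1-2 for CHIR+Activin over CHIR to -0.15. No paired analysis was possible because each treatment had 1 library, and no replicate could be left out for the same reason. Depth limits CDX2 in the WNT-activated libraries and GBX2 under BMP4, each with under 150 UMIs.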
